A study of Homo sapiens with 14 samples.

Results

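The collagen genes are the protein-coding genes whose symbol is COL, a number, A and a number, and each encodes 1 chain of a collagen. The symbol rule found 44 of them among 62757 genes with a count row, all 44 protein coding in GENCODE 29. They were divided by the kind of structure their chains build into 11 fibrillar, 9 network-forming and 24 other collagens. The 24 comprise 5 type VI chains, 10 fibril-associated collagens (FACITs, which decorate the surface of fibrils), 4 membrane-spanning collagens, 2 multiplexins and 3 remaining genes. The symbol rule itself uses no measured value, and each gene has its own locus.

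RNA was sequenced from OVCAR3 and A2780, both established cell lines of human ovarian cancer. The 14 libraries form 7 groups of 2. OVCAR3-WT and A2780-WT are labelled as the parental lines, and OVCAR3-DDP and A2780-DDP as their cisplatin-resistant derivatives (DDP is a common abbreviation of cisplatin). The other groups carry a short hairpin RNA in cells labelled OVCAR3-DDP: shNC is the control hairpin, and sh1 and sh2 both target ADAR1, the enzyme encoded by ADAR that turns adenosine into inosine in double-stranded RNA. By their labels the hairpin groups share the OVCAR3-DDP cells, but the marker genes described below differ widely between the hairpin libraries and the untransduced libraries labelled OVCAR3-DDP. In what follows OVCAR3-DDP names the libraries so labelled, whatever their cells. No A2780 group carries a hairpin. The labels give 1 derivative per line and do not say whether a derivative is a clone, at which dose it was kept, or whether replicates are separate cultures. The spread behind each p-value is that between these libraries alone and may be technical.

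A collagen molecule is a triple helix of 3 chains, which may be copies of 1 gene product or a mixture, so a cell needs the right set of chain genes to secrete a given type. Fibrillar collagens such as types I, III and V form the cables of connective tissue. Type IV forms the sheet of the basement membrane under epithelia, and type VI forms beaded filaments that link cells to fibrils. In tumours much of the fibrillar collagen comes from stromal fibroblasts, while carcinoma cells and epithelia make basement membrane chains. In pure cell cultures no stroma is present, and every value here is the RNA of cultured cells. Because these are bulk samples, fewer cells of a type and less RNA per cell cannot be told apart.

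The libraries labelled OVCAR3-DDP stand apart from the rest of the OVCAR3 series. The 12 ovarian carcinoma and epithelial markers summed to 540 to 577 CPM there (CPM, a gene's counts scaled to the usual fixed total of all counts assigned to genes), against 4045 to 4460 CPM in parental OVCAR3 and 4002 to 5226 CPM in the 6 hairpin libraries, although the latter carry the OVCAR3-DDP name. The keratin KRT7 had a mean of 1083 CPM in parental OVCAR3, 0.246 CPM in OVCAR3-DDP and 1006 CPM in shNC. Markers of neural or HEK293-type cells summed to 543 to 552 CPM in OVCAR3-DDP, 1.30 to 1.87 CPM in parental OVCAR3 and 7.09 to 11.3 CPM with hairpins. In A2780 the 12 ovarian carcinoma and epithelial markers summed to 198 to 307 CPM, with 2 counts of KRT7 over its 4 libraries. It had none of MUC16, an ovarian carcinoma antigen. Its fibroblast and mesenchyme markers summed to 5621 to 6348 CPM, chiefly VIM. Those markers summed to 944 to 1116 CPM in parental OVCAR3, 828 to 850 CPM in OVCAR3-DDP and 2682 to 3037 CPM with hairpins. Endothelial markers stayed at or under 3.01 CPM and leukocyte markers at or under 6.91 CPM in every library. The part of these differences in the collagen results was not tested, and each OVCAR3 result is given both with the libraries labelled OVCAR3-DDP and with shNC in their place. ADAR, the targeted gene, stood at 447 and 399 CPM in shNC, 289 and 254 CPM in sh1 and 116 and 114 CPM in sh2, a fall with both hairpins (log2 difference −1.35, SE 0.09, edgeR adjusted p = 5.04e-08 for their mean).

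In type IV, 3 pairs of genes lie head to head, so that the chains of a pair are read outwards from 1 stretch of DNA, and COL5A1 is the most abundant collagen of parental OVCAR3 and of the hairpin groups. The sequences were taken from RefSeq promoter windows (GRCh38.p14), which held an entry for 32 of the 44 genes. They are shown because the levels of COL4A1, COL4A2, COL4A5, COL4A6 and COL5A1 set the groups apart and because COL4A5, COL4A6 and COL5A1 fell with the ADAR hairpins. Capitals mark each TATAAA, each CCAAT and each GGGCGG on either strand.
COL4A1-COL4A2 shared stretch, chr13:110307158-110307283, read on the plus strand towards COL4A2: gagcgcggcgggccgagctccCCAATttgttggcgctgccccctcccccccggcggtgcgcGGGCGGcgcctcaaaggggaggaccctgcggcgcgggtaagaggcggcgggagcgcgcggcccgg
COL4A5, chrX:108439588-108439837, plus strand: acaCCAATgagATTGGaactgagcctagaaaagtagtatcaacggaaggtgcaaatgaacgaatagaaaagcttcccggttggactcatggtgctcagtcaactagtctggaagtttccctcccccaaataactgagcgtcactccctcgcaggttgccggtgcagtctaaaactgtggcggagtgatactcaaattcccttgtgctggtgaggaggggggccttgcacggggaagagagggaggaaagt
COL4A6, chrX:108439459-108439708, minus strand: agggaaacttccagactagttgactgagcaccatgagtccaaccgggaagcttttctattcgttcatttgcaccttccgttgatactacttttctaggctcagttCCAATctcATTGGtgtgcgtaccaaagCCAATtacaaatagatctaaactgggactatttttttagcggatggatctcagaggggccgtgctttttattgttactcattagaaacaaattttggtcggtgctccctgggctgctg
COL5A1, chr9:134641553-134641802, plus strand: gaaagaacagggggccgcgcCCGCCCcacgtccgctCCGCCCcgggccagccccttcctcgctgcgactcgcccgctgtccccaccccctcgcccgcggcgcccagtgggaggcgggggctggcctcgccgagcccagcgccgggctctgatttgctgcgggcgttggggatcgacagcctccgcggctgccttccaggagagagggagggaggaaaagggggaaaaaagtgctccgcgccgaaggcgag

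The COL4A1-COL4A2 stretch holds all 126 bases between the RefSeq starts of the pair, with a GC share of 80.2%, 1 CCAAT and 1 GGGCGG. The other sequences are the 250 bases before each start. The starts of COL4A6 and COL4A5 lie 379 bases apart, those of COL4A4 and COL4A3 418 bases, and the COL4A5 and COL4A6 stretches overlap in part. COL4A5 holds 2 CCAAT and COL4A6 holds 3, of which 2 are the same bases as those of COL4A5 read from the other strand, and neither holds GGGCGG. COL5A1 holds 2 GGGCGG, a GC share of 74% and no CCAAT. None of the 4 stretches holds TATAAA. Of all 35116 promoter windows, 10.7% held TATAAA, 32.0% CCAAT and 42.6% GGGCGG in the 250 bases before the start. These letters describe the window only and say nothing of which factor binds there.

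By level, 26 of the 44 genes reached a mean of at least 10 CPM in at least 1 group, 10 peaked between 1 and 10 CPM, and 8 stayed under 1 CPM everywhere. The 8 are COL6A3, COL6A6, COL9A1, COL10A1, COL20A1, COL21A1, COL22A1 and COL28A1. In single libraries 38.6% to 61.4% of the collagen genes reached 1 CPM, against 60.7% to 65.0% of the 19872 protein-coding genes. Summed over all 44 genes, collagen RNA was 4485 and 5952 CPM in the libraries of parental OVCAR3, 1772 and 1798 CPM in OVCAR3-DDP, 1611 and 1591 CPM in parental A2780 and 2446 and 2654 CPM in A2780-DDP. With hairpins the sum was 6312 and 5847 CPM in shNC, 5573 and 4967 CPM in sh1 and 3821 and 4291 CPM in sh2. The sum was thus highest in OVCAR3 other than OVCAR3-DDP, rose from parental A2780 to A2780-DDP without overlap, and was lower in both sh2 libraries than in any sh1 or shNC library.

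**Figure D1:**
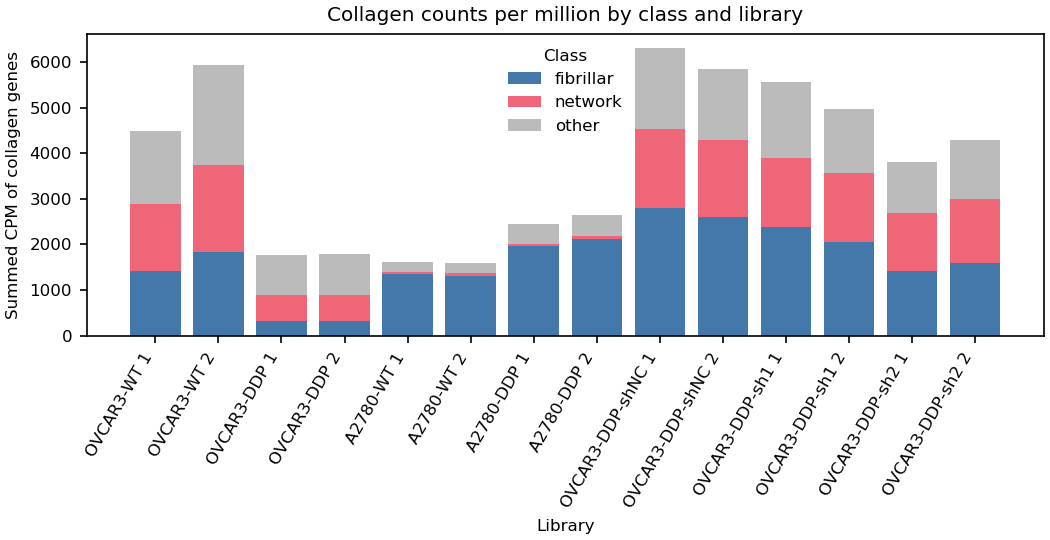
Summed collagen CPM of each library (y axis, CPM), stacked by class: fibrillar (blue), network-forming (red) and other (grey), with the 14 libraries on the x axis. Network-forming collagens make up a visible block in every OVCAR3 library and a thin strip of 58.5 to 65.8 CPM in the 4 A2780 libraries.

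The network-forming class divided the lines, and the fibrillar sum did not. Network-forming collagens summed to 1467 and 1909.6 CPM in OVCAR3-WT and 1736 and 1676 CPM in shNC, but to 61.1 and 58.5 CPM in parental A2780 and 60.8 and 65.8 CPM in A2780-DDP. Fibrillar collagens were the main class in A2780, at 1343 and 1318 CPM in the parental line and 1958 and 2131 CPM in A2780-DDP. They were also the largest class in shNC, sh1 and sh2, and their sum was higher in parental OVCAR3 than in parental A2780. In OVCAR3-DDP they summed to only 327 and 319.8 CPM, against 1428 and 1844 CPM in OVCAR3-WT and 2796 and 2609 CPM in shNC. Per kilobase of exon, the scale on which genes can be compared, the leading collagen was COL5A1 in parental OVCAR3 (135 CPM per kb) and shNC (228), COL5A2 in parental A2780 (101) and A2780-DDP (184), and COL6A1 in OVCAR3-DDP (66.7). By CPM, COL5A1 alone made up 29.03% of the collagen sum in parental OVCAR3 and 42.0% in shNC, and COL5A2 made up 47.2% in parental A2780.

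**Figure D2:**
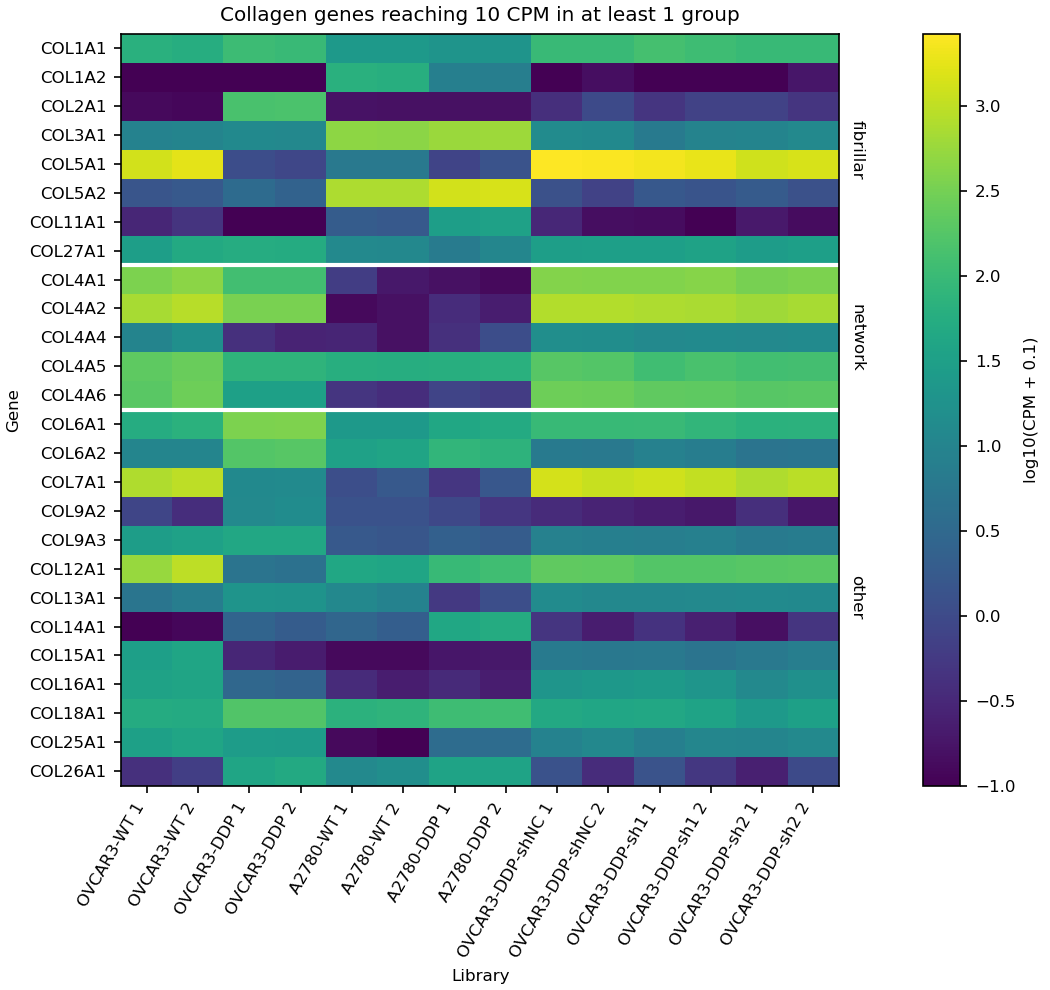
Level of the 26 collagen genes that reach 10 CPM in at least 1 group (rows, by class) in each of the 14 libraries (columns), coloured by log10 of CPM plus 0.1. Rows are to be read across, since CPM is not scaled by gene length. On this log scale replicates look alike, though COL12A1 stood at 558 and 956 CPM in parental OVCAR3. The A2780 columns are dark for COL4A1, COL4A2 and COL4A6, and the OVCAR3-DDP columns differ from the hairpin columns in most rows.

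Among the fibrillar genes, COL1A1 (chromosome 17, 50183289 to 50201632, GRCh38, GENCODE 29), a chain of type I collagen, the main protein of bone and tendon, stood at 63.0 and 57.5 CPM in parental OVCAR3, 107 and 99.4 in OVCAR3-DDP, 24.4 and 23.5 in parental A2780, 19.2 and 19.5 in A2780-DDP, 97.5 and 98.2 in shNC, 129 and 114 in sh1 and 95.9 and 94.0 in sh2. Its partner COL1A2 (chromosome 7, 94394561 to 94431232) was at 0 counts in both parental OVCAR3 libraries, both OVCAR3-DDP and both sh1 libraries, had 1 count over shNC and 2 over sh2, and stood at 63.3 and 59.8 CPM in parental A2780 and 8.14 and 7.68 CPM in A2780-DDP. A count of 0 over parental OVCAR3 allows up to 0.0353 CPM and over OVCAR3-DDP up to 0.0435 CPM, counting error only. Type I RNA in OVCAR3 thus came almost wholly from COL1A1, whereas A2780 carried both chains.

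COL3A1 (chromosome 2, 188974320 to 189012746), the single chain of type III collagen of vessel walls, stood at 478 and 458 CPM in parental A2780 and 583 and 606 CPM in A2780-DDP. In OVCAR3 it stood at 9.06 and 9.79 CPM in the parental line, 12.4 and 11.3 in OVCAR3-DDP, 13.3 and 12.4 in shNC, 6.61 and 9.51 in sh1 and 9.74 and 11.8 in sh2, far under every A2780 library. COL5A2 (chromosome 2, 189031896 to 189225312), which encodes a type V chain and lies 19 kb from COL3A1, followed the same order with 755 and 755 CPM in parental A2780 and 1303 and 1445 CPM in A2780-DDP, against 1.37 and 1.59 in parental OVCAR3, 3.39 and 2.38 in OVCAR3-DDP, 1.14 and 0.653 in shNC, 1.56 and 1.32 in sh1 and 1.76 and 1.14 in sh2. COL5A1 (chromosome 9, 134641774 to 134844843), the main type V chain, which sets the width of fibrils, had the opposite order. It stood at 1316 and 1714 CPM in parental OVCAR3, 2649 and 2462 in shNC, 2215 and 1896 in sh1 and 1283 and 1452 in sh2, and at 1.01 and 0.784 in OVCAR3-DDP, 6.06 and 6.08 in parental A2780 and 0.696 and 1.25 in A2780-DDP. No group held both major type V chains above 10 CPM.

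The remaining fibrillar genes at this level belong mainly to cartilage. COL2A1 (chromosome 12, 47972965 to 48004554), the chain of type II collagen, stood at 142 and 148 CPM in OVCAR3-DDP and under 1 CPM in all 12 other libraries, with 0.0279 and 0.0204 in parental OVCAR3, 0.0641 and 0.0611 in parental A2780, 0.0580 and 0.0610 in A2780-DDP, 0.295 and 0.870 in shNC, 0.379 and 0.659 in sh1 and 0.636 and 0.381 in sh2. COL11A1 (chromosome 1, 102876467 to 103108872), a minor chain that joins cartilage fibrils, stood at 30.5 and 34.5 CPM in A2780-DDP and 1.86 and 1.62 in parental A2780, with 0.195 and 0.366 in parental OVCAR3, 0 counts in OVCAR3-DDP, 0.211 and 0.0435 in shNC, 0.0421 and 0 in sh1 and 0.0979 and 0.0423 in sh2. Each of these genes was thus above 10 CPM in 1 group only. COL27A1 (chromosome 9, 114155560 to 114312511) was more even, at 30.6 and 49.4 CPM in parental OVCAR3, 55.1 and 51.8 in OVCAR3-DDP, 11.8 and 11.3 in parental A2780, 6.69 and 10.7 in A2780-DDP, 30.5 and 31.4 in shNC, 31.3 and 35.8 in sh1 and 27.4 and 31.6 in sh2. Of the fibrillar genes that peaked under 10 CPM, COL5A3 was highest in parental OVCAR3 (6.38 CPM), COL11A2 in A2780-DDP (5.13 CPM) and COL24A1 in OVCAR3-DDP (2.75 CPM).

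Of the network-forming genes, COL4A1 and COL4A2 encode the chains of the common type IV collagen of nearly every basement membrane. COL4A1 (chromosome 13, 110148963 to 110307233) stood at 351 and 444 CPM in parental OVCAR3, 123 and 122 in OVCAR3-DDP, 401 and 378 in shNC, 384 and 419 in sh1, 328 and 353 in sh2, 0.545 and 0.0917 in parental A2780 and 0.0580 and 0.0305 in A2780-DDP. COL4A2 (chromosome 13, 110305812 to 110513209) stood at 690.1 and 892 CPM in parental OVCAR3, 340.4 and 344 in OVCAR3-DDP, 836 and 824 in shNC, 769 and 713 in sh1, 619.9 and 697 in sh2, 0.0321 and 0.0611 in parental A2780 and 0.261 and 0.122 in A2780-DDP. Both chains were present in all 10 OVCAR3 libraries and within 20 counts over a group in A2780. Their RefSeq starts border the 126 bases printed above, and in GENCODE 29 the genes overlap there.

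COL4A5 and COL4A6, whose chains join in the basement membranes of skin and smooth muscle, did not keep together. COL4A5 (chromosome X, 108439844 to 108697545) stood at 213 and 263 CPM in parental OVCAR3, 76.2 and 74.2 in OVCAR3-DDP, 59.8 and 57.8 in parental A2780, 59.2 and 63.8 in A2780-DDP, 191 and 175 in shNC, 117 and 144 in sh1 and 120.4 and 128 in sh2. COL4A6 (chromosome X, 108155607 to 108439497) stood at 192 and 279.8 CPM in parental OVCAR3, 32.2 and 32.8 in OVCAR3-DDP, 275 and 270.2 in shNC, 217 and 211 in sh1 and 185 and 195 in sh2, but at 0.385 and 0.275 in parental A2780 and 0.696 and 0.518 in A2780-DDP. A2780 therefore read COL4A5 without more than a trace of COL4A6, although the starts of the pair lie 379 bases apart. COL4A4, a chain of the kidney glomerular membrane, stood at 9.95 and 16.2 CPM in parental OVCAR3, 0.318 and 0.174 in OVCAR3-DDP, 0.192 and 0.0611 in parental A2780, 0.319 and 1.01 in A2780-DDP, 15.3 and 14.4 in shNC, 12.2 and 12.99 in sh1 and 11.8 and 12.9 in sh2. Its head-to-head partner COL4A3 peaked under 10 CPM, with group means of 7.40 in parental OVCAR3, 8.02 in shNC, 9.26 in sh1 and 8.29 in sh2 and at most 0.0779 elsewhere. The type VIII chain COL8A1, of endothelial and corneal matrix, was highest in shNC (6.61 CPM). COL8A2 stood at 2.28 and 0.740 CPM in the shNC libraries, 1.39 and 0.612 CPM in sh1 and 0.782 and 0.638 CPM in OVCAR3-DDP, groups that overlap. COL10A1, of growth-plate cartilage, had at most 9 counts over a group.

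Type VI genes lie on several chromosomes, with COL6A1 and COL6A2 on chromosome 21. COL6A1 and COL6A2 lie 93 kb apart and COL18A1 468 kb from COL6A1. COL6A1 (chromosome 21, 45981737 to 46005050) stood at 348 and 365 CPM in OVCAR3-DDP, 55.2 and 65.6 in parental OVCAR3, 23.8 and 24.2 in parental A2780, 43.4 and 50.1 in A2780-DDP, 94.5 and 95.4 in shNC, 98.8 and 80.0 in sh1 and 66.3 and 69.4 in sh2. COL6A2 (chromosome 21, 46098097 to 46132849) stood at 177 and 185 CPM in OVCAR3-DDP, 10.3 and 10.2 in parental OVCAR3, 33.9 and 37.6 in parental A2780, 81.5 and 72.0 in A2780-DDP, 6.54 and 5.96 in shNC, 8.68 and 7.53 in sh1 and 4.90 and 5.16 in sh2. Both were highest in OVCAR3-DDP and higher in A2780-DDP than in its parent. COL6A3 (chromosome 2, 237324003 to 237414375), the third chain of the common type VI molecule, had between 3 and 47 counts over any group and so never reached 1 CPM as a group mean. COL6A5 was seen in OVCAR3-DDP (1.72 CPM) and had 0 counts in parental OVCAR3 and all A2780 libraries.

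COL18A1 (chromosome 21, 45405137 to 45513720), a multiplexin of basement membranes and the precursor of endostatin, stood at 52.9 and 50.4 CPM in parental OVCAR3, 165 and 166 in OVCAR3-DDP, 69.6 and 74.3 in parental A2780, 110.1 and 114 in A2780-DDP, 46.3 and 41.3 in shNC, 44.1 and 36.6 in sh1 and 24.6 and 32.9 in sh2. Its exons overlap those of SLC19A1 on the opposite strand over 1401 bases, and as no strand setting is given in the sources used here, reads of the 2 genes there may not be told apart. COL15A1, the other multiplexin, stood at 31.7 and 40.3 CPM in parental OVCAR3, 0.203 and 0.116 in OVCAR3-DDP, 0.0321 and 0.0306 in parental A2780, 0.0869 and 0.0915 in A2780-DDP, 6.50 and 5.87 in shNC, 5.94 and 4.94 in sh1 and 6.02 and 7.58 in sh2. The multiplexins thus differed: COL18A1 was present in all 14 libraries, and COL15A1 reached 1 CPM only in OVCAR3 libraries other than OVCAR3-DDP.

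The FACITs were led by COL12A1 (chromosome 6, 75084326 to 75206051), which coats type I fibrils. It stood at 558 and 956 CPM in parental OVCAR3, 4.89 and 4.32 in OVCAR3-DDP, 42.3 and 40.4 in parental A2780, 96.6 and 116 in A2780-DDP, 220.2 and 211 in shNC, 171 and 172 in sh1 and 187 and 197 in sh2. COL14A1, its close relative, stood at 43.8 and 51.8 CPM in A2780-DDP, 2.79 and 1.99 in parental A2780, 0 and 0.0204 in parental OVCAR3, 2.55 and 1.83 in OVCAR3-DDP, 0.380 and 0.131 in shNC, 0.337 and 0.141 in sh1 and 0.0490 and 0.381 in sh2. COL12A1 was high in parental OVCAR3 and COL14A1 only in A2780-DDP. COL16A1 stood at 35.3 and 38.7 CPM in parental OVCAR3, 2.87 and 2.50 in OVCAR3-DDP, 0.256 and 0.122 in parental A2780, 0.232 and 0.122 in A2780-DDP, 20.4 and 23.0 in shNC, 25.2 and 19.9 in sh1 and 12.1 and 16.4 in sh2. Of the cartilage chains of type IX, COL9A3 stood at 29.1 and 33.6 CPM in parental OVCAR3, 44.7 and 45.7 in OVCAR3-DDP, 1.63 and 1.41 in parental A2780, 2.17 and 1.83 in A2780-DDP, 8.52 and 7.96 in shNC, 7.83 and 8.19 in sh1 and 6.36 and 7.11 in sh2. COL9A2 reached 10 CPM in OVCAR3-DDP alone (11.9 and 13.8 CPM), with 0.725 and 0.285 in parental OVCAR3, 1.19 and 1.22 in parental A2780, 0.811 and 0.396 in A2780-DDP, 0.253 and 0.174 in shNC, 0.126 and 0.0941 in sh1 and 0.294 and 0.0846 in sh2. The third type IX gene, COL9A1, had at most 3 counts over any group, so no group held all 3 chains above 1 CPM. COL19A1 was above 1 CPM in OVCAR3-DDP alone (4.93 CPM).

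COL7A1 (chromosome 3, 48564073 to 48595267), whose product forms the anchoring fibrils that fasten epithelium to stroma, stood at 779 and 955 CPM in parental OVCAR3, 1347 and 1144 in shNC, 1284 and 1029.5 in sh1 and 786 and 929 in sh2, against 12.6 and 12.8 in OVCAR3-DDP, 1.06 and 1.65 in parental A2780 and 0.406 and 1.46 in A2780-DDP. COL17A1, the collagen of the hemidesmosome, was low throughout and highest in sh1 (3.73 CPM) and shNC (3.47 CPM). Among the other membrane-spanning collagens, COL13A1, found at the neuromuscular junction, stood at 5.05 and 7.53 CPM in parental OVCAR3, 19.3 and 18.9 in OVCAR3-DDP, 11.7 and 8.99 in parental A2780, 0.435 and 1.07 in A2780-DDP, 13.7 and 11.7 in shNC, 11.5 and 12.0 in sh1 and 12.8 and 12.4 in sh2. COL25A1, known from amyloid plaques, stood at 32.0 and 39.3 CPM in parental OVCAR3, 27.7 and 27.2 in OVCAR3-DDP, 0.0321 and 0 in parental A2780, 3.54 and 3.51 in A2780-DDP, 8.99 and 11.4 in shNC, 8.04 and 10.5 in sh1 and 10.3 and 12.0 in sh2. The membrane-spanning genes had no common order of groups, and COL23A1 differed again, with means of 6.07 CPM in OVCAR3-DDP, 5.88 in parental A2780 and 6.38 in A2780-DDP and 0 counts in parental OVCAR3. COL26A1 stood at 40.5 and 47.6 CPM in OVCAR3-DDP, 36.6 and 37.0 in A2780-DDP, 12.0 and 15.0 in parental A2780, 0.307 and 0.570 in parental OVCAR3, 1.18 and 0.261 in shNC, 1.26 and 0.424 in sh1 and 0.147 and 0.889 in sh2.

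Chains that assemble together were set side by side per kilobase of exon. In parental A2780 the ratio of COL1A1 to COL1A2 was 0.437 and 0.446 in the 2 libraries, and in A2780-DDP 2.67 and 2.89, so the order of the chains turned. COL4A1 stood at 0.666 and 0.651 of COL4A2 in parental OVCAR3, 0.474 and 0.465 in OVCAR3-DDP, and 0.629 and 0.602 in shNC. COL4A5 exceeded COL4A6 in OVCAR3-DDP (ratios 1.85 and 1.77) and was the lower of the pair in parental OVCAR3 (0.868 and 0.736) and shNC (0.544 and 0.508). The ratio of COL6A1 to COL6A2 was 5.42 and 6.50 in parental OVCAR3, 1.99 in both OVCAR3-DDP libraries, 14.6 and 16.1 in shNC, 0.710 and 0.648 in parental A2780, and 0.536 and 0.702 in A2780-DDP. In type V, COL5A1 was 641 and 719 times COL5A2 in parental OVCAR3 and 0.00535 and 0.00537 times COL5A2 in parental A2780.

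**Figure D3:**
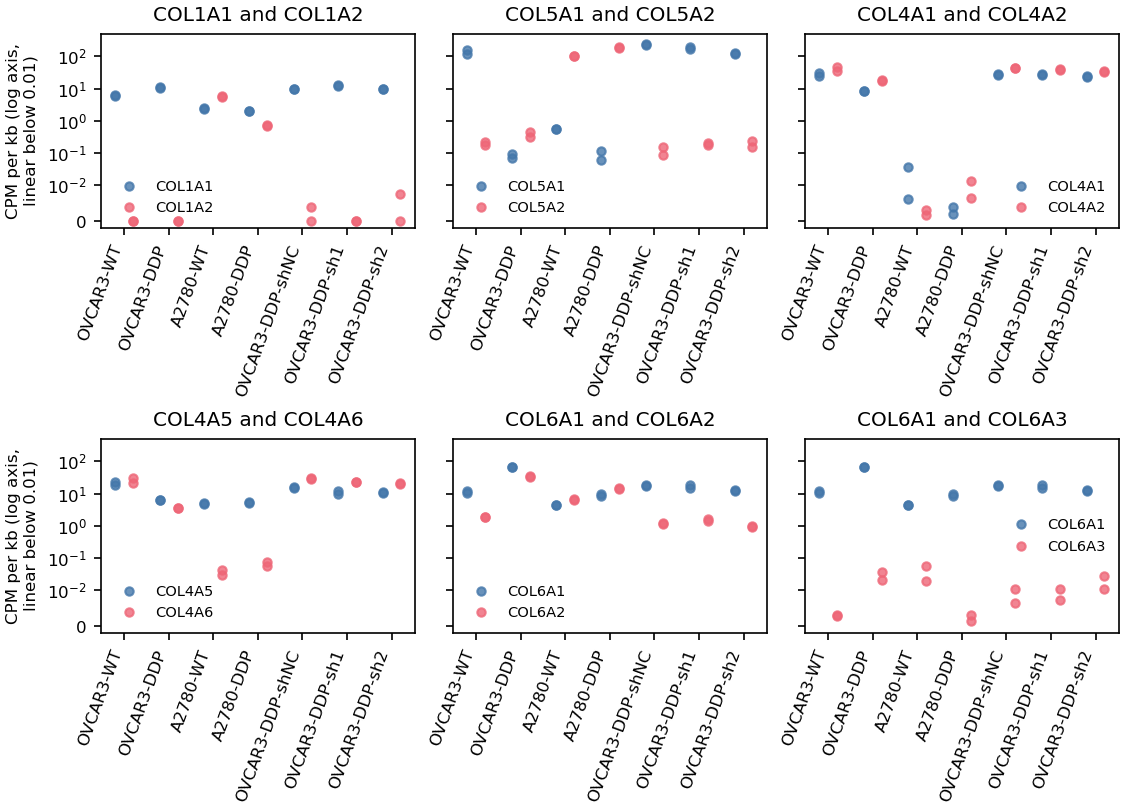
CPM per kilobase of exon (y axis, logarithmic above 0.01 and linear below) of 6 pairs of partner chains in the 7 groups, 1 point per library. COL1A2 is at or near 0 wherever the group is OVCAR3, COL5A1 is the higher of its pair in OVCAR3-WT and the hairpin groups and COL5A2 in the other groups, and COL6A3 is far below COL6A1 in every library.

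The comparison of the parental lines asks which collagens the lines differ in apart from their DDP-labelled derivatives. The labels do not give the cisplatin response of either parental line. Parental OVCAR3 was called higher than parental A2780 in 7 of 8 network-forming genes tested and in COL7A1, COL12A1, COL15A1, COL16A1 and COL25A1. The fibrillar calls went both ways. COL1A2, COL3A1, COL5A2 and COL11A1 were higher in parental A2780, and COL1A1, COL5A1, COL5A3 and COL27A1 in parental OVCAR3. Of 38 collagens that passed the low-count filter, 31 were called at an edgeR adjusted p under 0.05 (19 higher and 12 lower in OVCAR3), against 66.0% of the 23031 genes tested (32.3% higher, 33.7% lower). COL5A1 was higher in OVCAR3 (log2 difference 8.01, SE 0.18, edgeR adjusted p = 9.85e-13), and COL3A1 and COL5A2 differed the other way (−5.58, SE 0.11, and −8.93, SE 0.16). COL4A2, with 3 counts in parental A2780, was 17193-fold (95% counting interval 5883 to 83371) higher in OVCAR3, and COL1A2 at least 1742-fold higher in A2780. COL1A1 was higher in OVCAR3 (log2 difference 1.38, SE 0.10, edgeR adjusted p = 4.06e-08), the reverse of its partner. Of these calls, COL9A2, COL13A1 and COL17A1 were lost in at least 1 alternative.

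In A2780-DDP the type VI genes COL6A1 and COL6A2, the FACITs COL12A1 and COL14A1 and the fibrillar genes COL3A1, COL5A2 and COL11A1 were higher than in the parent, and the type I chain COL1A2 was lower. COL5A2 rose from 755 ± 0.0986 to 1374 ± 100.2 CPM (mean ± SD, n = 2; log2 difference 0.87, SE 0.11, edgeR adjusted p = 3.00e-05), and COL3A1 rose by less (log2 difference 0.36, SE 0.08, edgeR adjusted p = 0.00504). COL1A2 fell from 61.6 ± 2.44 to 7.91 ± 0.326 CPM (log2 difference −2.95, SE 0.13, edgeR adjusted p = 2.17e-08). COL11A1 rose from 1.74 ± 0.169 to 32.5 ± 2.80 CPM (log2 difference 4.23, SE 0.21, edgeR adjusted p = 1.53e-08) and COL14A1 from 2.39 ± 0.567 to 47.8 ± 5.66 CPM (log2 difference 4.34, SE 0.20, edgeR adjusted p = 3.41e-09). The libraries of the groups did not overlap for these genes, but the genes were chosen as called, so this adds nothing to the tests. The share of all genes without overlap was not counted.

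Of the 38 collagens tested, 21 were called in A2780, 15 higher and 6 lower, against 35.3% of all 23031 genes (18.0% higher, 17.3% lower). The median log2 difference was 0.73 against 0.00 over all genes tested. It was 0.53 with genes at 3 counts or fewer in 1 group set at their CPM ratio or bound. Genes that low in both groups were set at no difference for this value. The fibrillar class held 5 higher and 3 lower of 11, the other collagens 8 higher and 2 lower of 19, and the network-forming genes 2 higher and 1 lower of 8. Type VI rose in COL6A1 (log2 difference 0.97, SE 0.11, edgeR adjusted p = 1.39e-05) and COL6A2 (log2 difference 1.11, SE 0.10, edgeR adjusted p = 2.49e-06), while COL6A3 had 47 counts in the parent and 3 in A2780-DDP. COL12A1 (log2 difference 1.38, SE 0.19, edgeR adjusted p = 7.21e-05), COL18A1 (log2 difference 0.65, SE 0.09, edgeR adjusted p = 9.06e-05) and COL26A1 (log2 difference 1.45, SE 0.15, edgeR adjusted p = 7.17e-06) rose as well. COL25A1 went from 1 count to 237, a rise of 225-fold (95% counting interval 40.0 to 8925). COL13A1 fell (log2 difference −3.78, SE 0.31, edgeR adjusted p = 8.64e-07), as did the residual COL5A1 (log2 difference −2.64, SE 0.23, edgeR adjusted p = 1.18e-06).

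COL4A5, the main type IV chain of A2780, was not called (log2 difference 0.08, SE 0.10, edgeR adjusted p = 0.628). The network-forming calls rest on few counts: COL4A1 (20 to 3), COL4A4 (8 to 44) and COL8A1 (0 to 10). Those 3, together with COL1A1, COL5A3 and COL11A2, lost the call in at least 1 alternative. The fall of COL1A1 (log2 difference −0.30, SE 0.10, edgeR adjusted p = 0.035) was lost in 9 of them, among them each fit that leaves out 1 A2780 library (edgeR adjusted p = 0.144 to 0.247). The smooth muscle actin ACTA2, one of the mesenchymal markers, moved with this comparison from 543 to 6.55 CPM, while VIM stood at 5681 and 5840.0 CPM. Neural or HEK293-type markers summed to 139 to 140 CPM in the parent and 339 to 392 CPM in A2780-DDP. The part of these genes in the collagen result was not tested.

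In the libraries labelled OVCAR3-DDP 7 of 8 network-forming genes tested were called lower than in parental OVCAR3, as were COL5A1, COL7A1 and COL12A1. The eighth, COL8A2, had a higher value that was not called (log2 difference 1.38, SE 0.59, edgeR adjusted p = 0.0539) but was called higher with DESeq2's size factors (1.43, edgeR adjusted p = 0.0463), with upper-quartile scaling (1.51, 0.0371) and in the fit of all 14 libraries (1.45, 0.0486). COL5A1 fell from 1515 ± 282 to 0.898 ± 0.162 CPM (log2 difference −10.89, SE 0.22, edgeR adjusted p = 5.06e-13). COL12A1 fell from 757 ± 281 to 4.61 ± 0.402 CPM (log2 difference −7.53, SE 0.25, edgeR adjusted p = 1.80e-11) and COL7A1 from 867 ± 124 to 12.7 ± 0.126 CPM (log2 difference −6.27, SE 0.23, edgeR adjusted p = 5.91e-11). Type IV fell in all 6 chains, with log2 differences of −1.39 (SE 0.12) for COL4A2, −1.84 (SE 0.10) for COL4A5 and −5.89 (SE 0.48) for COL4A4, and with 3 counts of COL4A3 against 640. Higher in OVCAR3-DDP were the cartilage gene COL2A1 (2 counts to 9995, 6155-fold (95% counting interval 1703 to 50829)), COL26A1 (log2 difference 6.41, SE 0.22, edgeR adjusted p = 3.02e-11), COL6A2 (log2 difference 3.97, SE 0.12, edgeR adjusted p = 6.80e-12), COL6A1 (log2 difference 2.38, SE 0.11, edgeR adjusted p = 4.22e-10) and COL18A1 (log2 difference 1.502, SE 0.09, edgeR adjusted p = 8.07e-09).

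Of 38 tested, 32 collagens were called, 16 higher and 16 lower, beside 68.5% of all genes (33.4% higher, 35.2% lower), and the median log2 difference was 0.07 against −0.03. The classes split as 4 higher and 3 lower of 11 fibrillar, 0 higher and 7 lower of 8 network-forming, and 12 higher and 6 lower of 19 other genes. Genes with 0 counts in parental OVCAR3 were COL23A1 (at least 172-fold higher in OVCAR3-DDP), COL19A1 (at least 139.6-fold) and COL6A5 (at least 48.9-fold). The call of COL6A5 was lost with DESeq2's Wald test (adjusted p = 0.1104), and that of COL9A3 when any of 3 libraries was left out.

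The shNC libraries, which carry the same OVCAR3-DDP name, gave another picture against parental OVCAR3. COL5A1 was higher there (log2 difference 0.95, SE 0.13, edgeR adjusted p = 7.87e-07), as were COL7A1 (log2 difference 0.71, SE 0.17, edgeR adjusted p = 0.000846), COL1A1 (log2 difference 0.89, SE 0.11, edgeR adjusted p = 2.57e-07), COL6A1 (log2 difference 0.84, SE 0.12, edgeR adjusted p = 2.07e-06) and COL4A6 (log2 difference 0.40, SE 0.12, edgeR adjusted p = 0.00985). COL15A1 (log2 difference −2.35, SE 0.19, edgeR adjusted p = 3.20e-10), COL9A3 (log2 difference −1.74, SE 0.15, edgeR adjusted p = 9.65e-10), COL12A1 (log2 difference −1.62, SE 0.15, edgeR adjusted p = 2.83e-09) and COL25A1 (log2 difference −1.61, SE 0.17, edgeR adjusted p = 2.63e-08) were lower. In all, 20 of 39 tested collagens were called, 13 higher and 7 lower, against 51.5% of the 24193 genes tested (25.1% higher, 26.5% lower). Hairpin, transduction and any difference in library preparation cannot be told apart in this contrast, and mitochondrial messenger RNA was 0.925% to 0.947% of counts in shNC against 2.50% to 2.72% in parental OVCAR3. The calls of COL4A6, COL7A1, COL8A1, COL8A2, COL14A1, COL16A1 and COL23A1 were lost in at least 1 alternative.

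The comparisons of OVCAR3-DDP and of shNC with parental OVCAR3 share the parental libraries, and their log2 differences are set side by side here, that of OVCAR3-DDP first. They were −10.89 and 0.95 for COL5A1, −6.27 and 0.71 for COL7A1, and −3.04 and 0.40 for COL4A6. For COL6A2 they were 3.97 and −0.52, for COL6A1 2.38 and 0.84, and for COL12A1 −7.53 and −1.62. Against OVCAR3-DDP itself, shNC differed in 32 of 39 collagens, 17 higher and 15 lower (69.7% of all genes, 32.9% higher and 36.8% lower), and 8 of 8 network-forming genes tested were called higher in shNC. The call of COL8A2 among them (log2 difference 1.37, SE 0.57, edgeR adjusted p = 0.0372) was lost with the replicate block, with DESeq2's Wald test and without either OVCAR3-DDP library, and without shNC replicate 1 the log2 difference was 0.36 (edgeR adjusted p = 0.709). COL3A1, COL6A5, COL11A1 and COL27A1 also lost this call in at least 1 alternative. COL5A1 was higher in shNC (log2 difference 11.76, SE 0.21, edgeR adjusted p = 2.68e-23).

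**Figure D4:**
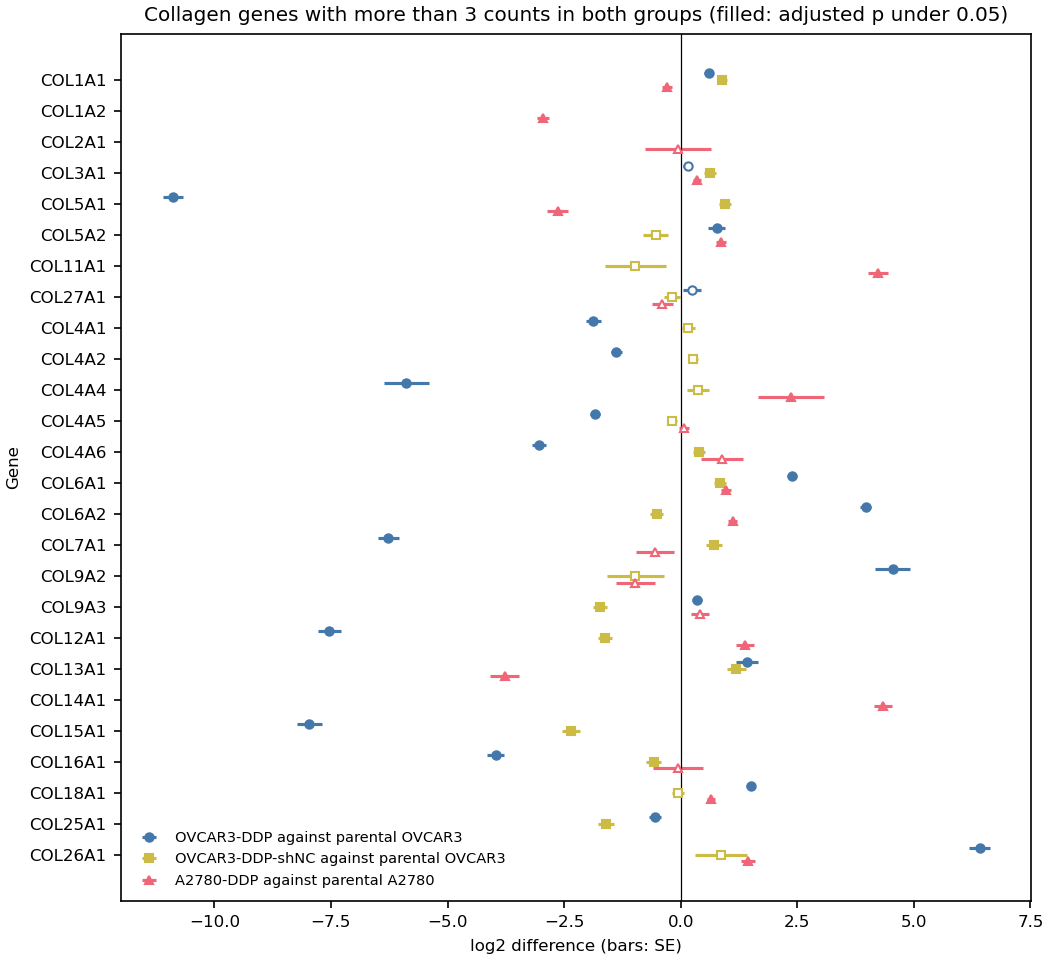
log2 difference (x axis, bars 1 SE) of the collagens at 10 CPM or more with over 3 counts in both groups, for OVCAR3-DDP (blue circles), OVCAR3-DDP-shNC (yellow squares) and A2780-DDP (red triangles), each against its parental line; filled symbols passed the adjusted threshold of 0.05. Blue and yellow lie far apart for COL5A1, COL7A1 and the COL4 genes, while COL6A1 lies to the right of 0 in all 3.

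Whether a collagen responded differently in the lines was tested as the difference of the 2 log2 differences. With OVCAR3-DDP, 30 of 38 collagens differed between lines, against 53.8% of all genes (26.9% in either direction), 13 with the higher value in OVCAR3 and 17 with the lower. Of the called genes, 9 of the 38 tested were called opposite ways in the lines, beside 11.4% of all genes: COL1A1 and COL13A1, higher in OVCAR3-DDP and lower in A2780-DDP, and COL6A3 likewise at low counts, and in reverse COL4A4, COL5A3, COL8A1, COL11A1, COL12A1 and COL25A1. Others of these rest on few counts as well. From parental A2780 to A2780-DDP they were 8 to 44 for COL4A4, 1 to 11 for COL5A3, 0 to 10 for COL8A1 and 1 to 237 for COL25A1. From parental OVCAR3 to OVCAR3-DDP they were 25 to 0 for COL11A1. The A2780 calls of COL1A1, COL4A4, COL5A3 and COL8A1 were lost in at least 1 alternative. Of the 9, COL1A1, COL5A3, COL12A1, COL13A1 and COL25A1 were called in shNC against parental OVCAR3 with the sign of OVCAR3-DDP. COL8A1 was called there with the other sign, and COL4A4, COL6A3 and COL11A1 were not called. With OVCAR3-DDP, 8 of 38 collagens were called the same way in both lines, beside 15.4% of all genes. COL5A2, COL6A1, COL6A2, COL14A1, COL18A1 and COL26A1 were higher and COL4A1 and COL5A1 lower. Of these, shNC against parental OVCAR3 kept only COL6A1 and COL14A1 called the same way. There COL6A2 was lower and COL5A1 higher, and COL4A1, COL5A2, COL18A1 and COL26A1 were not called. The share of all genes kept in this way was not counted. The A2780 call of COL4A1, with 20 counts in the parent and 3 in A2780-DDP, was also lost in at least 1 alternative. With shNC in place of OVCAR3-DDP, 21 of 39 differed between lines (40.9% of all genes, 18.7% positive and 22.2% negative). COL12A1 (log2 difference −3.02, SE 0.22, edgeR adjusted p = 3.82e-11), COL25A1 (log2 difference −9.11, SE 0.52, edgeR adjusted p = 5.63e-13), COL13A1 (log2 difference 4.95, SE 0.35, edgeR adjusted p = 3.09e-11) and COL1A1 (log2 difference 1.16, SE 0.16, edgeR adjusted p = 1.80e-06) kept the sign they had with OVCAR3-DDP (−8.91, −8.09, 5.19 and 0.90 in that order). With 1 count of COL25A1 in parental A2780, the size of both its values depends on the prior count of the fit. For COL5A1 and COL6A2 the sign turned: −8.25 became 3.56, and 2.85 became −1.66. COL6A1 was higher in OVCAR3-DDP, in shNC and in A2780-DDP than in the parental line, and its line difference with shNC was −0.15 (SE 0.17, edgeR adjusted p = 0.528).

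With the ADAR hairpins in cells labelled OVCAR3-DDP, RNA of COL5A1 and of the type IV chains COL4A5 and COL4A6 was lower than with the control hairpin. COL4A2 and COL7A1 were called lower for the mean of the hairpins, a call that each lost in at least 1 alternative. With sh1 alone neither was called (COL4A2 −0.24, edgeR adjusted p = 0.191, and COL7A1 −0.18, edgeR adjusted p = 0.417). COL5A1 stood at 2556 ± 133 CPM in shNC, 2056 ± 225 CPM in sh1 and 1368 ± 119.6 CPM in sh2, and fell for the mean of the hairpins (log2 difference −0.70, SE 0.09, edgeR adjusted p = 7.25e-05), for sh1 (log2 difference −0.39, SE 0.10, edgeR adjusted p = 0.0345) and for sh2 (log2 difference −1.01, SE 0.10, edgeR adjusted p = 7.21e-06). COL4A5 fell from 183 ± 10.9 CPM to 130.4 ± 18.6 CPM in sh1 and 124 ± 5.58 CPM in sh2 (log2 difference −0.62, SE 0.10, edgeR adjusted p = 0.00102 for the mean), and COL4A6 from 272 ± 3.11 CPM to 214 ± 4.42 CPM and 189.9 ± 7.49 CPM (log2 difference −0.52, SE 0.09, edgeR adjusted p = 0.00137). For these 3 genes all 4 libraries with an ADAR hairpin lay below both shNC libraries. The same held for COL3A1, COL4A2, COL8A1 and COL12A1 and for COL4A4, which was not called. All of these genes but COL4A4 were called for the mean of the hairpins, so this adds nothing to the tests. The share of all genes separated in this way was not counted. COL4A5, COL4A6 and COL5A1 were called for the mean of the hairpins in every alternative run. Mitochondrial messenger RNA was 0.925% to 0.947% of counts in shNC and 0.726% to 0.867% with the ADAR hairpins, and the epithelial markers summed to 4920 to 5226 CPM and 4002 to 4321 CPM (0 higher and 6 lower of 10 tested). Their part in the collagen result was not tested.

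Against the mean of sh1 and sh2, 10 of 28 collagens tested were called, all 10 lower, beside 11.9% of the 19044 genes tested (5.94% higher and 5.98% lower), and the median log2 difference was −0.27 against 0.00. The 10 held 2 of 8 fibrillar genes (COL3A1 and COL5A1), 4 of 8 network-forming genes (COL4A2, COL4A5, COL4A6 and COL8A1) and 4 of 12 others (COL6A1, COL7A1, COL12A1 and COL18A1). COL7A1 (log2 difference −0.41, SE 0.10, edgeR adjusted p = 0.013), COL4A2 (log2 difference −0.34, SE 0.09, edgeR adjusted p = 0.0163) and COL18A1 (log2 difference −0.45, SE 0.13, edgeR adjusted p = 0.028) were among them. COL4A1, the partner of COL4A2, was not called (−0.17, SE 0.09, edgeR adjusted p = 0.233), nor was COL1A1 (0.04, SE 0.10, edgeR adjusted p = 0.829). The 10 calls dropped to 3 without shNC replicate 1, to 5 without shNC replicate 2 and to 4 without sh2 replicate 1, and the 7 other than COL4A5, COL4A6 and COL5A1 were each lost in at least 1 alternative.

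With sh1, 5 of 28 collagens were called, all lower (3.81% of all genes, 1.96% higher and 1.85% lower), namely COL3A1, COL4A5, COL4A6, COL5A1 and COL12A1. With sh2, where ADAR was lower, 10 were called, all lower (14.3% of all genes, 7.23% higher and 7.04% lower), namely COL4A2, COL4A5, COL4A6, COL5A1, COL6A1, COL7A1, COL8A1, COL8A2, COL16A1 and COL18A1. The comparisons share the shNC libraries. Tested directly, sh2 was lower than sh1 in COL5A1 (log2 difference −0.62, SE 0.10, edgeR adjusted p = 0.00283), COL7A1 (log2 difference −0.46, SE 0.12, edgeR adjusted p = 0.0463) and COL16A1 (log2 difference −0.69, SE 0.17, edgeR adjusted p = 0.0427) (3 of 28 collagens, against 1.92% of all genes, 0.667% higher and 1.25% lower). All 3 of these calls were lost without sh2 replicate 1. Each of the 5 calls with sh1 was lost in at least 1 alternative, and with sh2 the 10 calls fell to 1 without sh2 replicate 1.

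**Figure D5:**
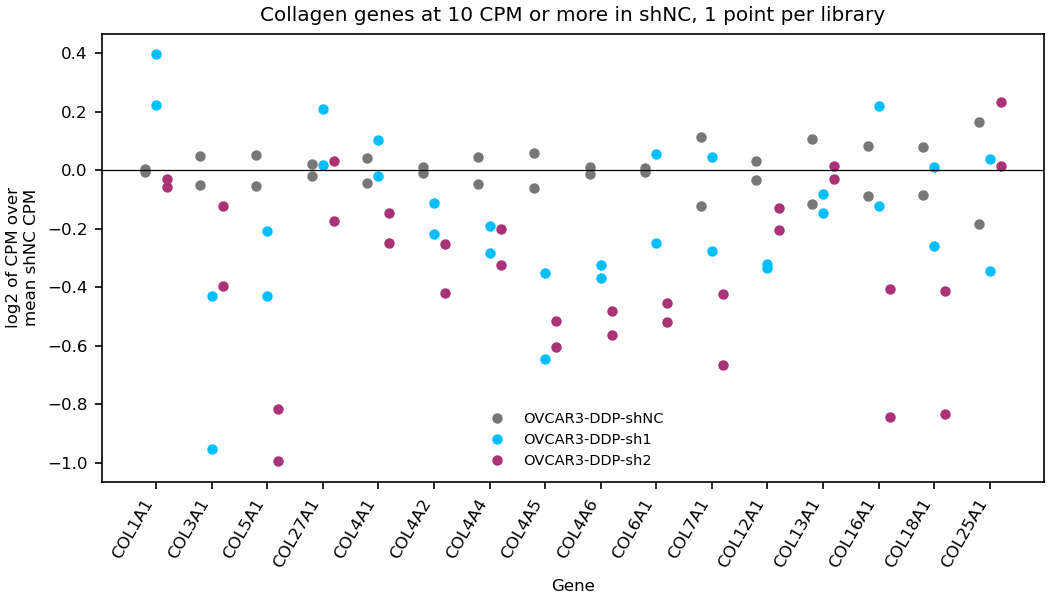
log2 of each library's CPM over the mean CPM of shNC (y axis) for the 16 collagens at 10 CPM or more in shNC (x axis): shNC (grey), sh1 (light blue) and sh2 (purple), 1 point per library. For COL5A1, COL4A5 and COL4A6, and also for COL3A1, COL4A2, COL4A4 and COL12A1, all coloured points lie under the grey ones. All of these but COL4A4 were called for the mean of the hairpins, so this adds nothing to the tests. For COL5A1 sh2 lies lowest.

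The genes that fold, process, bind and cut collagens were read from 4 lists. In A2780-DDP, where 18.0% of all genes tested were called higher and 17.3% lower, 2 of 22 folding and modification genes were higher and 8 lower. They include the lysyl hydroxylases PLOD3 (log2 difference −1.02, SE 0.10, edgeR adjusted p = 2.98e-06) and PLOD1 (log2 difference −0.75, SE 0.09, edgeR adjusted p = 2.17e-05) and the glycosyltransferase COLGALT2 (log2 difference −0.92, SE 0.13, edgeR adjusted p = 9.06e-05). Of 13 genes for propeptide processing and cross-linking, 5 were higher and 4 lower, among the latter the cross-linking oxidase LOXL2, which fell from 108 ± 3.04 to 2.35 ± 0.168 CPM (log2 difference −5.51, SE 0.13, edgeR adjusted p = 1.35e-11), and the proteinase enhancers PCOLCE2 (−1.92, SE 0.14) and PCOLCE (−1.91, SE 0.11). Of 9 receptors tested, 1 was higher and 3 lower, and the collagen-binding kinase DDR2 fell from 565 ± 38.6 to 4.78 ± 0.444 CPM (log2 difference −6.88, SE 0.14, edgeR adjusted p = 4.59e-12) beside a smaller fall of the uptake receptor MRC2 (−0.40, SE 0.10). Of 6 proteases tested, 3 were higher and 1 lower, with MMP14 up (1.36, SE 0.22) and MMP1 down (−2.05, SE 0.20). The median log2 differences of the 4 lists were −0.16, −0.25, 0.17 and 0.78 in that order, beside 0.00 over all genes.

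In the hairpin libraries the folding list held 2 higher and 8 lower of 21, the processing list 0 and 3 of 11, the receptors 0 and 1 of 8, and the proteases 0 and 0 of 6 for the mean of sh1 and sh2, beside 5.94% higher and 5.98% lower of all genes. The prolyl isomerases FKBP9 (log2 difference −1.04, SE 0.09, edgeR adjusted p = 2.00e-06) and FKBP10 (log2 difference −0.47, SE 0.09, edgeR adjusted p = 0.00354) fell and the channel TMEM38B rose (log2 difference 0.51, SE 0.14, edgeR adjusted p = 0.0275). LOXL1 (−0.58, SE 0.15), LOXL2 (−0.46, SE 0.10), the procollagen proteinase BMP1 (−0.42, SE 0.10) and the receptor kinase DDR1 (−0.48, SE 0.12) fell as well. The median log2 differences of the lists were −0.26, −0.27, −0.16 and 0.08, beside 0.00 over all genes tested. With sh1 alone 0 of 11 processing genes and 0 of 8 receptors were called (1.96% of all genes higher, 1.85% lower). With sh2 alone the processing list held 0 higher and 4 lower and the receptors 0 and 1 (7.23% and 7.04%). DDR1 stood at 76.4 ± 1.49 CPM in shNC, 69.9 ± 16.1 CPM in sh1 and 48.9 ± 3.36 CPM in sh2. The calls of list genes were not followed through the alternatives. Against parental OVCAR3, 33.4% of all genes were called higher and 35.2% lower in OVCAR3-DDP, and 25.1% and 26.5% in shNC, and both comparisons share the parental libraries. The folding list had 4 higher and 15 lower of 22 in OVCAR3-DDP, and 13 higher and 1 lower in shNC. For the processing list the counts were 5 higher and 6 lower of 13 with OVCAR3-DDP and 6 and 4 with shNC, for receptors 4 and 4 of 9 and 4 and 2, and for proteases 2 and 2 of 6 and 4 and 0.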

How the data were processed

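RNA of 14 libraries was analysed from deposited read counts per gene (whole numbers, not normalized). Per the submitters' processing notes the authors used FastQC 0.11.9, STAR 2.7.8a, SAMtools and HTSeq 2.0.3 with GRCh38.p13; the sources used here do not give annotation release or strand setting. Each library had 20428538 to 49115255 counts assigned to 62757 genes, and lines that name no gene stayed out (48.7% to 50.0% without a feature).

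CPM are counts over the assigned total. Differences were tested with edgeR 4.0.16 (quasi-likelihood, TMM factors, low-count filter of 10, Benjamini-Hochberg over all genes, threshold 0.05), in 1 fit of the 8 libraries without hairpins, 1 of the 6 hairpin libraries and 1 of all 14 for shNC against other groups. Fitted differences use TMM and need not equal ratios of CPM. Exon lengths and positions are from GENCODE 29. A group at 0 counts was set at 3 counts over the group, and ratios with 1 to 3 counts carry 95% counting intervals; floors and intervals cover counting error only. Alternatives were DESeq2 1.42.0, its size factors, upper-quartile scaling, no filter, a replicate block, other library sets and leaving out each library. The fits were also run on simulated counts with equal spread in all groups and few changed genes. These settings differ from the data, so that run does not bear on the calls given here.

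The collagens and the lists were chosen with earlier results of these data known. Collagens at 10 CPM or more in a group were described in every library, those below it where called with a group at 1 CPM or more, and from each partner list the 3 called genes with the largest differences at 10 CPM or more were named.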

Additional observations from a re-analysis of the deposited data

Results flagged for a closer look

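The difference of the DDP-labelled from the parental libraries of 20 collagens at 10 CPM or more differed between OVCAR3 and A2780, by edgeR's test of the difference itself (OVCAR3 minus A2780, log2, adjusted over all genes). It was positive for COL2A1 (12.28), COL9A2 (5.52), COL13A1 (5.19), COL26A1 (4.96), COL6A2 (2.85), COL14A1 (2.67), COL6A1 (1.41), COL1A1 (0.90) and COL18A1 (0.85). It was negative for COL11A1 (−10.69), COL15A1 (−9.39), COL12A1 (−8.91), COL5A1 (−8.25), COL4A4 (−8.25), COL25A1 (−8.09), COL7A1 (−5.72), COL4A6 (−3.93), COL16A1 (−3.90), COL4A2 (−3.36) and COL4A5 (−1.92). Values of genes with 3 counts or fewer in a group, such as COL2A1, COL25A1 and COL11A1, depend on the prior count of the fit and are no bounds. Of the 20, COL14A1 lost the call with DESeq2's Wald test (adjusted p = 0.0600), without OVCAR3-WT replicate 1 (2.06, edgeR adjusted p = 0.133) and without OVCAR3-WT replicate 2 (4.77, 0.0561), and COL4A2 without A2780-DDP replicate 1 (−2.66, edgeR adjusted p = 0.0591).

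These values rest on the libraries labelled OVCAR3-DDP. With shNC in their place the same contrast was 1.24 for COL7A1 (edgeR adjusted p = 0.0141), 3.56 for COL5A1 (edgeR adjusted p = 2.23e-11), −0.72 for COL18A1 (edgeR adjusted p = 0.00216) and −1.66 for COL6A2 (edgeR adjusted p = 9.45e-08), each with the opposite sign. The call of COL7A1 was lost there with DESeq2's Wald test (1.30, adjusted p = 0.109), without A2780-WT replicate 2 (0.84, edgeR adjusted p = 0.178) and without A2780-DDP replicate 1 (0.58, edgeR adjusted p = 0.203).

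The hairpins differed from each other (sh2 minus sh1, log2) in COL5A1 (−0.62), COL7A1 (−0.46) and COL16A1 (−0.69), again by edgeR's test of the difference, and all 3 calls were lost without sh2 replicate 1.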

How the results depend on the processing

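No result reversed under the alternatives run. The number of collagens called stayed within 1.5 times its value except among the hairpin comparisons: sh1 against shNC gave 3 in a fit of all 14 libraries, and sh2 against sh1 gave 6 with DESeq2's Wald test. Over all genes, sh2 against sh1 gave 690 calls without the low-count filter and 646 with the Wald test, against 365. Leaving out 1 library moved the collagens called between 3 and 13 for both hairpins averaged, 0 and 9 with sh1 (725 of all genes were called with all libraries, 3725 at an unadjusted p under 0.05), 1 and 8 for sh2 and 0 and 11 for sh2 against sh1, and all genes called between 327 and 6318, 89 and 4512, 303 and 1386, and 58 and 4286. An arm then holds 1 library, which edgeR takes to vary like the other groups. The cause of these shifts was not tested.

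With TMM effective library sizes the class sums moved by more than 1 SD in OVCAR3-DDP (286 CPM fibrillar, 507 network-forming, 785 other), parental A2780 (1276, 57.3 and 202), shNC (3078, 1943 and 1903) and sh1 (1605 network-forming). Upper-quartile scaling moved the median of all genes from −0.03 to 0.07 in OVCAR3-DDP and from −0.01 to 0.10 in the line difference.

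Replicate numbers did not pair the samples (correlations of deviations −0.063 to 0.114). The spread between replicates was unequal, while each fit takes 1 spread per gene for all its groups. The mean chi-square per gene between replicates was 31.5 in parental OVCAR3, 21.1 in sh1 and 18.0 in A2780-DDP. In the other groups it was 3.88 to 5.01. With the replicate block the collagens called were 32 in OVCAR3-DDP, 21 in A2780, 30 for the line difference, 31 between parental lines, 10, 4, 10 and 3 among hairpins, and 20, 31 and 21 with shNC. The fit without OVCAR3-DDP libraries was chosen after seeing the data. The planned comparison of protein sequences was not run.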
